A study of Mus musculus with 24 samples.

Results

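The astrocyte genes described here are 39 genes that are used as markers of astrocytes or are known to be strongly expressed by them, picked by gene symbol from the 14074 genes of the normalized count table for the mouse prefrontal cortex (PFC). All 39 were present, all 39 were among the 14060 genes tested, and the lowest number of reads of any of them in a library was 107. They were compared gene by gene and as the mean of their log2 levels in each library. The study asked how the PFC responds to glucocorticoid receptor activation in mice that cope differently with chronic social defeat. Each of 24 adult male C57BL/6 mice gave 1 bulk RNA-seq library. Control mice were not defeated. Mice named PS, for a passive strategy of coping, and mice named AS, for an active one, had met 30 days of social defeat by aggressive males and had been separated by clustering their behavior. In each of these 3 phenotypes, 4 mice received saline and 4 received dexamethasone (DEX), a synthetic agonist of the glucocorticoid receptor, at 2 mg/kg, and tissue was taken after 6 h. No transgene or mutation is named for any group, and the saline and DEX mice of a phenotype had the same stress history.

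Astrocytes are the glial cells that take up glutamate and potassium released by active neurons, convert glutamate to glutamine and return it to neurons, and cover blood vessels with endfeet rich in the water channel encoded by Aqp4. They are joined by gap junctions into networks, store glycogen, activate thyroid hormone for their neighbours and secrete proteins that act on synapses and matrix. They express the glucocorticoid receptor, a ligand-activated transcription factor, and in injury or inflammation they raise intermediate filament genes such as Gfap and Vim. In a bulk library, fewer cells of a type and less RNA per cell cannot be told apart, and several of the 39 genes are also expressed outside astrocytes, for example Vim in vessels and Glul in oligodendrocytes.

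Levels between genes were compared per kilobase of exon, because longer transcripts collect more reads. The highest mean levels over the 24 libraries were 17525 normalized counts per kb for Sparcl1, a secreted matricellular protein, 14386 for Glul, glutamine synthetase, and 6301 for Aldoc, the brain isoform of aldolase. The glutamate transporter gene Slc1a2 had 5852 per kb, and the second astrocytic glutamate transporter, Slc1a3, had 1798. The lowest were Bmpr1b, a receptor for bone morphogenetic proteins, with 86.2 per kb, and Agt, the angiotensin precursor, with 98.4. The genes also differed in how steady they were between mice of a group. The SD of the log2 level within groups was 0.08 for Glud1, Sparcl1 and Ttyh1 and 0.56 for Fabp7, a fatty acid binding protein of radial glia and astrocytes, followed by 0.31 for Gfap and 0.29 for the GABA transporter gene Slc6a11.

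By normalized counts, Slc1a2 and Sparcl1 had the highest means. Slc1a2 (chr2:102658659-102790784, mm10) had 60242, 76572, 81582 and 83774 normalized counts in the saline-treated control mice and 77166, 83900, 85698 and 90020 in the DEX-treated ones. PS mice had 69302, 78808, 81087 and 86495 with saline and 57152, 67926, 72479 and 79923 with DEX, and in AS mice 63434, 81789, 83435 and 86075 with saline and 59701, 71229, 79547 and 87153 with DEX. Single mice well below their group, at 57152 to 63434, occurred in 4 of the 6 groups, and saline and DEX libraries overlapped in all 3 phenotypes. Sparcl1 (chr5:104079111-104113733) varied less, from 46661 in a saline-treated control mouse to 58843 in a DEX-treated AS mouse, and its groups overlapped likewise.

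**Figure D1:**
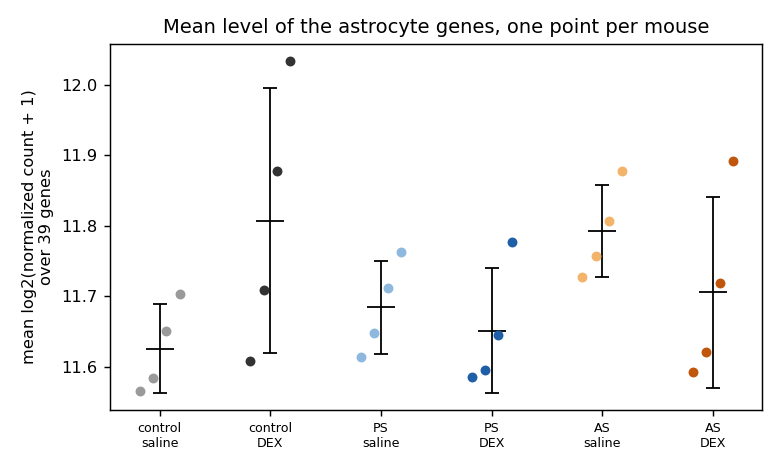
Mean log2(normalized count + 1) over the 39 astrocyte genes (vertical axis) in the 6 groups (horizontal axis), with 1 point per mouse and the group mean and SD as bars (n = 4). The DEX-treated control mice spread from 11.61 to 12.03, while the 4 saline-treated control mice sit between 11.57 and 11.70.

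Averaged over the 39 genes, the mean log2 level per library was 11.63 ± 0.06 (SD, n = 4) in saline-treated and 11.81 ± 0.19 in DEX-treated control mice, 11.68 ± 0.07 and 11.65 ± 0.09 in PS mice, and 11.79 ± 0.07 and 11.71 ± 0.14 in AS mice. The 4 saline-treated AS mice (11.73 to 11.88) all lay above the 4 saline-treated control mice (11.57 to 11.70). The DEX-treated control mice and the DEX-treated AS mice each overlapped with their saline group. The highest library of all, at 12.03, was DEX-treated control mouse 101.

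Libraries that stand apart touch some of these values. Recovered depth ran from 21121869 to 59439645 reads, the highest in saline-treated PS mouse 28. Group medians were higher in AS mice than in the other phenotypes, although AS mice 8 and 72 had 23481722 and 24908942 reads. The DEX labels were checked with Fkbp5 and Tsc22d3, direct targets of the glucocorticoid receptor, which were called higher in all 3 phenotypes. Fkbp5 had 761 to 1088 normalized counts in the 12 saline libraries and 2931 to 4198 in the 12 DEX libraries. A set of 5 genes of the olfactory bulb, among them Eomes, chosen after seeing the data, summed to between 1822 and 7467 normalized counts in 5 libraries with at least 100 counts of Eomes and to between 368 and 1127 in the other 19. These 5 libraries were saline-treated control mouse 117, DEX-treated control mouse 122, saline-treated PS mouse 2, DEX-treated PS mouse 34 and saline-treated AS mouse 14. They had 375 to 903 normalized counts of Fabp7 and 4690 to 6721 of Slc6a11, against 227 to 577 and 3304 to 4725 in the others. The part of this in the results was not tested other than by leaving these 5 libraries out, and counts without them are given below.

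**Figure D2:**
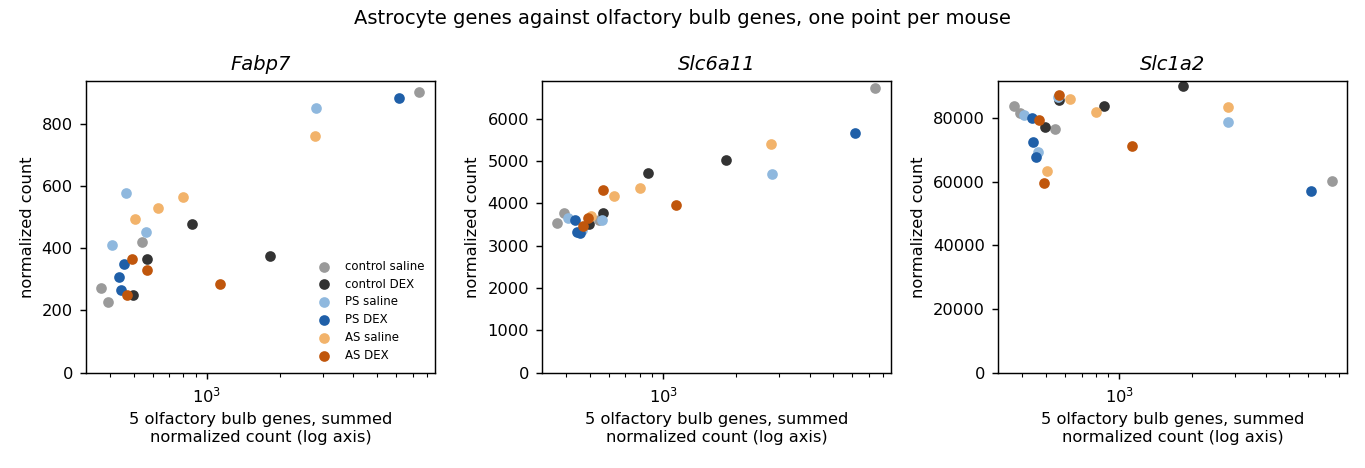
Normalized counts of Fabp7, Slc6a11 and Slc1a2 (vertical axes) against the summed normalized counts of 5 olfactory bulb genes (horizontal log axis), with 1 point per mouse, coloured by group. The libraries at the right, with sums of 1822 to 7467, hold the 4 highest values of Fabp7, the fifth library lying at 375, and high values of Slc6a11, while Slc1a2 is low in both libraries with the largest sums and in others with small sums.

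Chronic stress with saline moved none of the 39 genes past the threshold (limma over all genes, Benjamini-Hochberg adjusted p under 0.1). In PS against control mice 0 were called, where 1.51% of all genes were, and 5 (12.8%) had an unadjusted p under 0.05, beside 13.2% of all genes. In AS against control mice 0 were called, where 0.185% of all genes were, and 12 (30.8%) had an unadjusted p under 0.05, beside 11.0% of all genes. Between AS and PS mice 0 members and 0.0% of all genes were called, with 5 members (12.8%) and 4.79% of all genes at an unadjusted p under 0.05. EdgeR and DESeq2 also called 0 members in these comparisons. The differences were small and mostly of one sign. In AS mice 36 of 39 genes lay above the control mean, with a median log2 difference of 0.15, beside 50.9% of all genes and a median of 0.00. In PS mice 27 of 39 did, with a median of 0.05, beside 50.6% of all genes. Both comparisons share the 4 saline-treated control libraries. The median in AS mice was 0.19 with quantile normalization and stayed above 0 with each library left out (0.14 to 0.17). Markers of some other cell types also lay to one side in that comparison. All 10 microglial markers (median 0.21), all 8 mural markers (0.21) and all 6 markers of the leptomeninges (0.54) lay above the control mean, and all 10 oligodendrocyte markers lay below it (-0.47), 7 of them at an unadjusted p under 0.05 and none called. In PS mice the 10 microglial (0.15) and 6 leptomeningeal markers (0.42) lay above and the 10 oligodendrocyte markers below the control mean (-0.19). The part of these cell types in the values of the 39 genes was not tested.

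Among the genes with the lowest adjusted p in AS mice, Mlc1, a membrane protein of endfeet, had 3025 ± 206 normalized counts in control and 3611 ± 100 in AS mice (log2 difference 0.26, adjusted p = 0.248 by limma). Aqp4 had 2729 ± 225 in control, 3274 ± 296 in PS and 3229 ± 410 in AS mice, with log2 differences of 0.26 and 0.24 (limma, adjusted p = 0.182 and 0.329). For Gfap the log2 differences were 0.01 in PS and 0.34 in AS mice, and the 95% interval in AS mice, -0.06 to 0.74, includes 0. For Slc1a2 the 95% intervals were -0.20 to 0.34 in PS and -0.21 to 0.33 in AS mice. A fit on only the groups compared called Aqp4 and Ppp1r3c, a glycogen-targeting phosphatase subunit, higher in PS mice.

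DEX moved 15 of the 39 genes (38.5%) in at least 1 phenotype, in both directions within the list, beside 14.0% of all genes called in at least 1. In control mice 8 rose (4.05% of all genes rose) and 1 fell (2.46% of all genes fell). In PS mice 4 rose (2.75% of all genes) and 4 fell (2.65%). In AS mice 4 rose (3.83% of all genes) and 6 fell (4.97%). In the mean of the 3 phenotypes 9 rose (7.49% of all genes) and 5 fell (8.05%). Gjb6, Htra1 and Fgfr3 rose and Ednrb fell in all 3 phenotypes (4 genes or 10.3%, beside 1.97% of all genes), 4 genes were called in exactly 2 phenotypes (2.75% of all genes), 7 in exactly 1 (9.3% of all genes), and 24 in none. Relative to the mean of the 39 genes, 6 rose and 3 fell in control mice and 7 rose and 5 fell in AS mice. The count in PS mice is given at the end. This scaling uses the members themselves and centers the list by construction. The shares of all genes called with it are not given, so these counts describe the members alone.

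**Figure D3:**
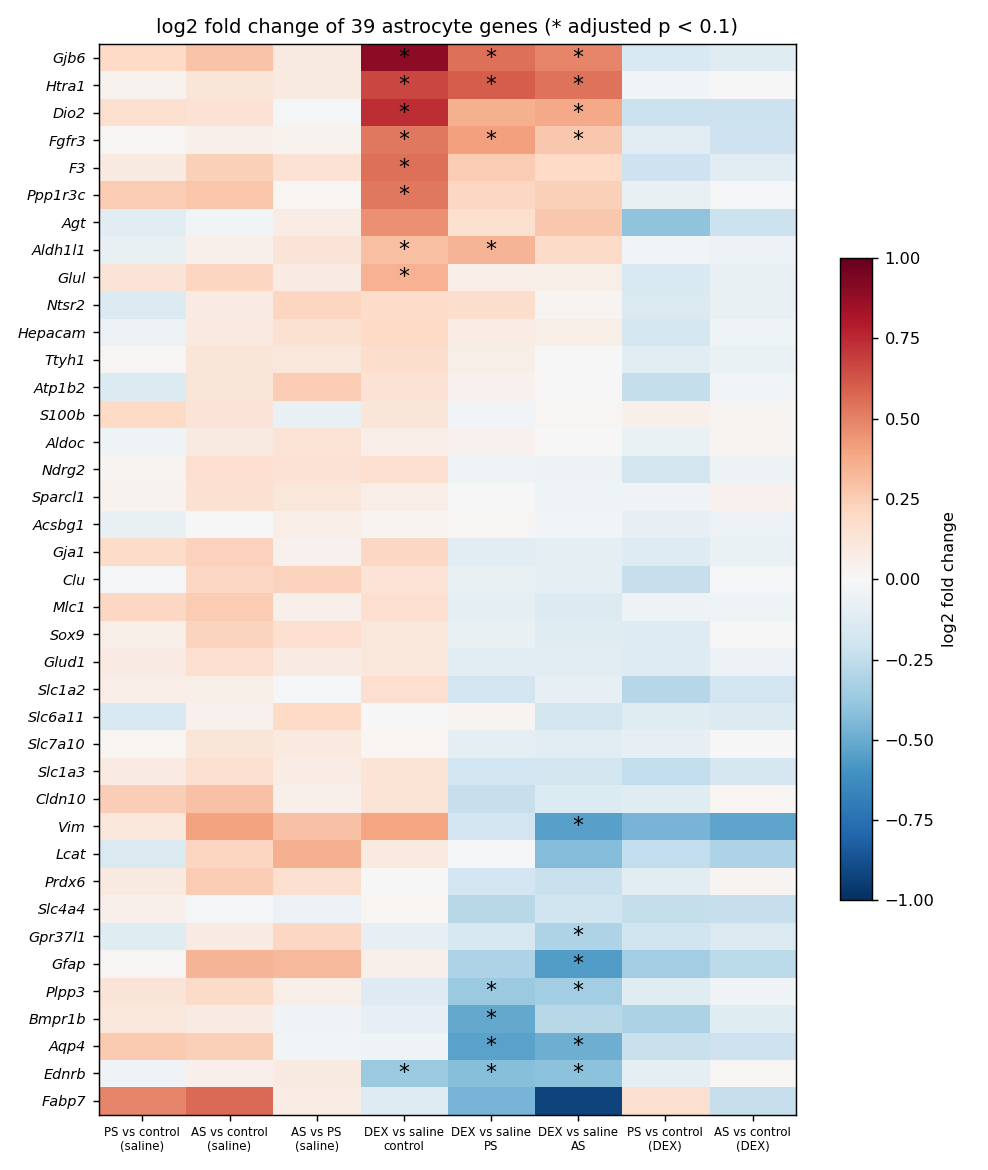
Log2 fold changes (color) of the 39 astrocyte genes (rows, ordered by the mean DEX effect) in 8 comparisons (columns). Asterisks mark an adjusted p under 0.1 in limma; they occur in the 3 DEX columns and in no stress column.

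Connexin 30, the product of Gjb6 (chr14:57123303-57133611), forms astrocyte gap junctions. Gjb6 had 1112, 1188, 1316 and 1382 normalized counts in control mice with saline and 1889, 2165, 2456 and 2889 with DEX. The counts in PS mice were 1171, 1314, 1589 and 1700 with saline and 2020, 2080, 2103 and 2153 with DEX, and in AS mice 1408, 1533, 1554 and 1580 with saline and 1947, 1986, 2093 and 2557 with DEX. Every DEX library lay above every saline library of its phenotype, and all 12 DEX libraries lay above all 12 saline libraries. Gjb6 rose by 0.90 on the log2 scale (SE 0.12) in control mice, by 0.55 in PS mice and by 0.49 in AS mice (limma, adjusted p = 1.6e-05, 0.00517 and 0.0105). The other astrocyte connexin gene, Gja1, had log2 fold changes of 0.21, -0.11 and -0.09, none past the threshold.

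Htra1 (chr7:130936111-130985660) encodes a secreted serine protease of the extracellular matrix. It had 3261, 3460, 3822 and 4035 normalized counts in control mice with saline and 4966, 5299, 5946 and 7017 with DEX. In PS mice it had 3624, 3680, 3743 and 3853 with saline and 5021, 5408, 5758 and 6537 with DEX, and in AS mice 3703, 3811, 4079 and 4255 with saline and 5174, 5586, 5987 and 6403 with DEX. Again the lowest of the 12 DEX libraries (4966) lay above the highest of the 12 saline libraries (4255). Log2 fold changes of 0.66 in control, 0.60 in PS and 0.54 in AS mice passed the test (SE 0.09 each; limma, adjusted p = 6.52e-05, 0.000249 and 0.000691).

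Fgfr3 (chr5:33721674-33737068), a fibroblast growth factor receptor, had 2746, 2859, 2937 and 3131 normalized counts in control mice with saline and 3816, 3961, 4319 and 4798 with DEX. PS mice had 2811, 2885, 2994 and 3088 with saline and 3770, 3930, 3938 and 3981 with DEX, and in AS mice 2746, 2988, 3055 and 3289 with saline and 3453, 3569, 3742 and 3785 with DEX. The groups of each phenotype did not overlap. Fgfr3 rose by 0.53 in control mice, by 0.41 in PS mice and by 0.27 in AS mice on the log2 scale (SE 0.07 each; limma, adjusted p = 9.64e-06, 0.000356 and 0.013). The difference between the AS and the control response, -0.26, did not pass (limma, adjusted p = 0.21).

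Dio2 (chr12:90724552-90738438) encodes the deiodinase that converts thyroxine to the active thyroid hormone. It had 2225, 2605, 2656 and 2710 normalized counts in control mice with saline and 3819, 4076, 4194 and 4952 with DEX. The counts in PS mice were 2455, 2723, 3007 and 3270 with saline and 3500, 3527, 3776 and 3804 with DEX, and in AS mice 2450, 2760, 2819 and 3288 with saline and 2890, 3032, 4115 and 4986 with DEX. The control and the PS groups did not overlap, and the AS groups did. The log2 fold changes were 0.74 in control mice (SE 0.13; limma, adjusted p = 0.000792), 0.36 in PS mice (adjusted p = 0.16) and 0.38 in AS mice (adjusted p = 0.0915). The AS call was lost in 19 of 34 other settings, among them the fits without each of AS mice 8, 14, 44, 42 and 72, and without AS mouse 72 the log2 fold change was 0.23.

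F3 (chr3:121723537-121735048), tissue factor, which starts coagulation and is made by astrocytes in brain, had 761, 794, 838 and 869 normalized counts in control mice with saline and 1015, 1118, 1221 and 1474 with DEX. In PS mice it had 792, 835, 898 and 956 with saline and 973, 1038, 1051 and 1090 with DEX, and in AS mice 865, 938, 1004 and 1051 with saline and 929, 1062, 1141 and 1313 with DEX. The control and PS groups were separate and the AS groups overlapped. The log2 fold change was 0.55 in control mice (SE 0.10; limma, adjusted p = 0.00117), and the values in PS and AS mice, 0.26 and 0.20, did not pass.

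Aldh1l1 (chr6:90486427-90600203), a folate enzyme used as a general astrocyte marker, had 1764, 1794, 1883 and 1977 normalized counts in control mice with saline and 2002, 2114, 2326 and 2738 with DEX. PS mice had 1647, 1669, 1852 and 1886 with saline and 2012, 2214, 2297 and 2435 with DEX, and in AS mice 1820, 1857, 1982 and 2044 with saline and 2010, 2074, 2142 and 2583 with DEX. The control and PS groups did not overlap. It rose in control mice by 0.30 and in PS mice by 0.34 on the log2 scale (limma, adjusted p = 0.0536 and 0.0245). The value in AS mice, 0.19, did not pass. The control call was lost without each of control mice 109, 117, 101 and 122, with a log2 fold change of 0.21 without mouse 101, and both calls were lost without the 5 libraries with high olfactory bulb genes (0.27 and 0.28).

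The other rises were in control mice. Ppp1r3c rose from 632 ± 1.46 to 917 ± 97.0 normalized counts (log2 fold change 0.53; limma, adjusted p = 0.000746), with 0.20 in PS and 0.24 in AS mice. Glul rose from 41571 ± 2208 to 53357 ± 7778 (0.35; limma, adjusted p = 0.0167), with 0.07 and 0.06 in PS and AS mice, and its call was lost without the 5 libraries, with a log2 fold change of 0.33 (limma, adjusted p = 0.132), and in a fit on only the groups compared (0.35; adjusted p = 0.11). Relative to the mean of the 39 genes the value was 0.17 and was not called. Agt passed only in the mean of the 3 phenotypes (0.30, SE 0.10; limma, adjusted p = 0.0479).

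**Figure D4:**
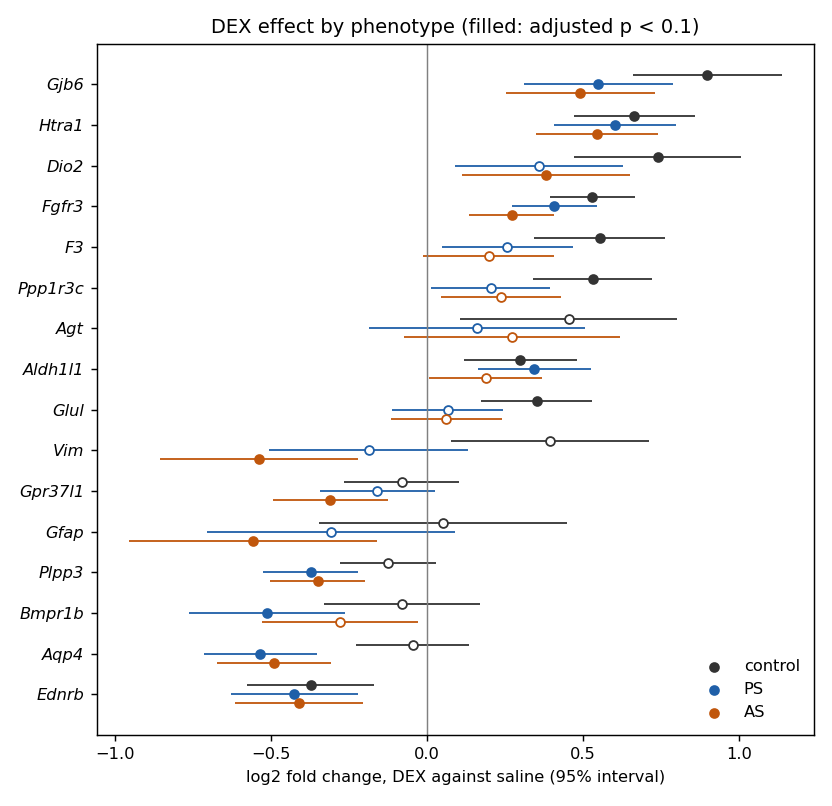
Log2 fold change of DEX against saline (horizontal axis) with 95% intervals in control, PS and AS mice, for the 16 astrocyte genes called in any DEX comparison (vertical axis). Filled points passed an adjusted p of 0.1; Gjb6, Htra1, Fgfr3 and Ednrb are filled in all 3 colors, and for Vim the control interval lies above 0 while the AS interval lies below it.

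The gene that fell in all 3 phenotypes was Ednrb. Ednrb (chr14:103814625-103844402), the endothelin receptor of astrocytes, also present in vessels, had 922, 1012, 1096 and 1340 normalized counts in control mice with saline and 762, 783, 893 and 913 with DEX. The counts in PS mice were 999, 1003, 1084 and 1133 with saline and 718, 756, 819 and 850 with DEX, and in AS mice 1043, 1056, 1174 and 1215 with saline and 784, 788, 817 and 994 with DEX. The groups did not overlap in any phenotype. Log2 fold changes of -0.37 in control, -0.43 in PS and -0.41 in AS mice passed the test (SE 0.10 each; limma, adjusted p = 0.0285, 0.0119 and 0.0122). The control call was lost without control mouse 117 (-0.27), without the 5 libraries (-0.30) and in a fit on only the groups compared.

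Aqp4 (chr18:15389496-15410982) had 2506, 2581, 2840 and 2989 normalized counts in control mice with saline and 2372, 2512, 2723 and 2974 with DEX, which overlapped. In PS mice it had 3031, 3091, 3286 and 3687 with saline and 2090, 2275, 2284 and 2375 with DEX, and in AS mice 2748, 3080, 3383 and 3706 with saline and 2072, 2254, 2363 and 2462 with DEX. The groups of the stressed mice were separate. The log2 fold changes were -0.53 in PS and -0.49 in AS mice (SE 0.09 each; limma, adjusted p = 0.000448 and 0.000933) and -0.05 in control mice. The difference from the control response was -0.49 for PS and -0.44 for AS mice, and neither passed in limma (adjusted p = 0.288 and 0.12). DESeq2 called the difference for AS mice (-0.45).

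Plpp3 (chr4:105157347-105232764), a membrane phosphatase that degrades lysophosphatidic acid, had 5893, 6190, 6390 and 6628 normalized counts in control mice with saline and 4891, 5502, 6135 and 6600 with DEX. PS mice had 6475, 6728, 7036 and 7178 with saline and 5176, 5217, 5327 and 5433 with DEX, and in AS mice 6630, 7239, 7278 and 7462 with saline and 5215, 5468, 5478 and 6303 with DEX. The control groups overlapped and the others did not. It fell by 0.37 in PS and by 0.35 in AS mice on the log2 scale (SE 0.07 each; limma, adjusted p = 0.00287 and 0.00435), and the value in control mice was -0.13.

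Bmpr1b (chr3:141837136-142169425) had 522, 591, 592 and 623 normalized counts in PS mice with saline and 349, 388, 416 and 482 with DEX, without overlap. In control mice it had 505, 521, 539 and 583 with saline and 430, 486, 533 and 594 with DEX, and in AS mice 465, 560, 569 and 700 with saline and 406, 445, 463 and 568 with DEX, and these groups overlapped. The log2 fold change in PS mice was -0.52 (SE 0.12; limma, adjusted p = 0.0131), and the call was lost without the 5 libraries (-0.43). For Gpr37l1, an orphan receptor of astrocytes, the mean fell from 4347 ± 60.9 to 3513 ± 257 in AS mice (log2 fold change -0.31; limma, adjusted p = 0.0384), a call lost without AS mouse 8 (-0.30) or 42 (-0.27) and relative to the mean of the 39 genes (-0.22).

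The sequences before the starts of 2 genes that rose and 2 that fell in the mean of the 3 phenotypes are shown as examples. They were not picked by size of change alone, since Htra1 rose by 0.60 there and Dio2 by 0.49. Ednrb and Plpp3 are also the only genes that fell there whose windows hold the letters marked below. The examples are therefore no comparison of genes that rose with genes that fell. They are the 250 bases upstream of the start in RefSeq (GRCm38.p6), 5′ to 3′ on the strand of the gene: Gjb6 at chr14:57133612-57133861 and Dio2 at chr12:90739039-90739288, both on the minus strand, Ednrb at chr14:103843702-103843951 on the minus strand, and Plpp3 at chr4:105157097-105157346 on the plus strand. Capitals mark AGAACA or its reverse complement TGTTCT. Each is a 6-letter arm of the element that the glucocorticoid receptor binds, and not the whole element.
Gjb6: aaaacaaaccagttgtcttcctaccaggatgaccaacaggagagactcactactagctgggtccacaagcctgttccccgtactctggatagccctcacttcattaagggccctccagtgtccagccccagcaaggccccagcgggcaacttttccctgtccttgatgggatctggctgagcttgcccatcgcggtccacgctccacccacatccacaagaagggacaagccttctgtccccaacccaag
Dio2: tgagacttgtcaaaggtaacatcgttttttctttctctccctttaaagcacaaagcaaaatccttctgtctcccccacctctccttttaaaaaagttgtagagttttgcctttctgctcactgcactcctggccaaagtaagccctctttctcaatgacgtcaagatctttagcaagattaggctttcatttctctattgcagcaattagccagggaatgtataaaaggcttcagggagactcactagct
Ednrb: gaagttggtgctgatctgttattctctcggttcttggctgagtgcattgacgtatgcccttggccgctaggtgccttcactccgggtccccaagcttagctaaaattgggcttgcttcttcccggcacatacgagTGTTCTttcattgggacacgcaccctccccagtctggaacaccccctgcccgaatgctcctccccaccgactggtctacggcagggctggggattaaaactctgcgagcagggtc
Plpp3: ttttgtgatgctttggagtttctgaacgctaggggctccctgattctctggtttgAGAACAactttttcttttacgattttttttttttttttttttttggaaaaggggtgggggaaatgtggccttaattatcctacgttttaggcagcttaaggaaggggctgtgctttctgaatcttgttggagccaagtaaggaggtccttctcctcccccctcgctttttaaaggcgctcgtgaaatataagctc
The arm occurred once in the window of Ednrb, 115 bases before the RefSeq start, and once in that of Plpp3, 195 bases before it. The windows of Gjb6 and Dio2 hold neither form. RefSeq starts can differ from the gene coordinates given above. The windows of Gjb6 and Plpp3 adjoin those coordinates. That of Ednrb lies inside them, so its match is not upstream of the gene by those coordinates. That of Dio2 lies beyond them, with a gap. Of the 39 genes, 33 had a promoter window of 250 bases before and 50 after the start. The arm was in 5 of these 33 (15.2%), Ednrb, Hepacam, Plpp3, Slc1a3 and Ttyh1, against 19.0% of 27025 genes. Both strands were searched in the first window listed for each gene. The whole element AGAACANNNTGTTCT was in 0 of the 33 windows and in 1 of the 27025. Of the other genes that fell in the mean of the 3 phenotypes, Bmpr1b and Gpr37l1 did not hold the arm and Aqp4 had no window. None of the genes that rose in that mean held it. A match describes the letters in this window only.

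Both intermediate filament genes were called lower after DEX in AS mice. Gfap (chr11:102887336-102900912), the classical astrocyte filament, had 2529, 2597, 2771 and 3587 normalized counts in control mice with saline and 2416, 2671, 3069 and 3801 with DEX. The counts in PS mice were 2206, 2849, 3159 and 3411 with saline and 1997, 2100, 2399 and 2861 with DEX, and in AS mice 2642, 2946, 4096 and 5272 with saline and 2123, 2202, 2285 and 3358 with DEX. The groups overlapped in every phenotype. In AS mice the log2 fold change was -0.56 (SE 0.19; limma, adjusted p = 0.094), against 0.05 in control and -0.31 in PS mice. The AS call was lost in 16 of 34 other settings, and without AS mouse 40, the library at 5272, the log2 fold change was -0.37.

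Vim (chr2:13573927-13582826) encodes vimentin, a filament of immature and reactive astrocytes and of vascular cells. It had 983, 1053, 1062 and 1086 normalized counts in control mice with saline and 1052, 1367, 1468 and 1679 with DEX. In PS mice it had 984, 1049, 1186 and 1341 with saline and 845, 884, 976 and 1335 with DEX, and in AS mice 1069, 1372, 1438 and 1743 with saline and 805, 872, 1022 and 1149 with DEX. In control mice 3 of 4 DEX libraries lay above all saline libraries, while in AS mice 3 of 4 DEX libraries lay below all saline libraries. The log2 fold changes were 0.39 in control mice (limma, adjusted p = 0.183), -0.19 in PS and -0.54 in AS mice (SE 0.15; adjusted p = 0.0368). The AS call was lost without AS mouse 8 (-0.52), 40 (-0.43) or 42 (-0.46). The difference between the AS and control responses was -0.93 (SE 0.22; limma, adjusted p = 0.0941), and Vim was the only member called in that comparison, in which 0.349% of all genes were called. This call was lost in 20 of 34 other settings, and without DEX-treated control mouse 101 the difference was -0.835.

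**Figure D5:**
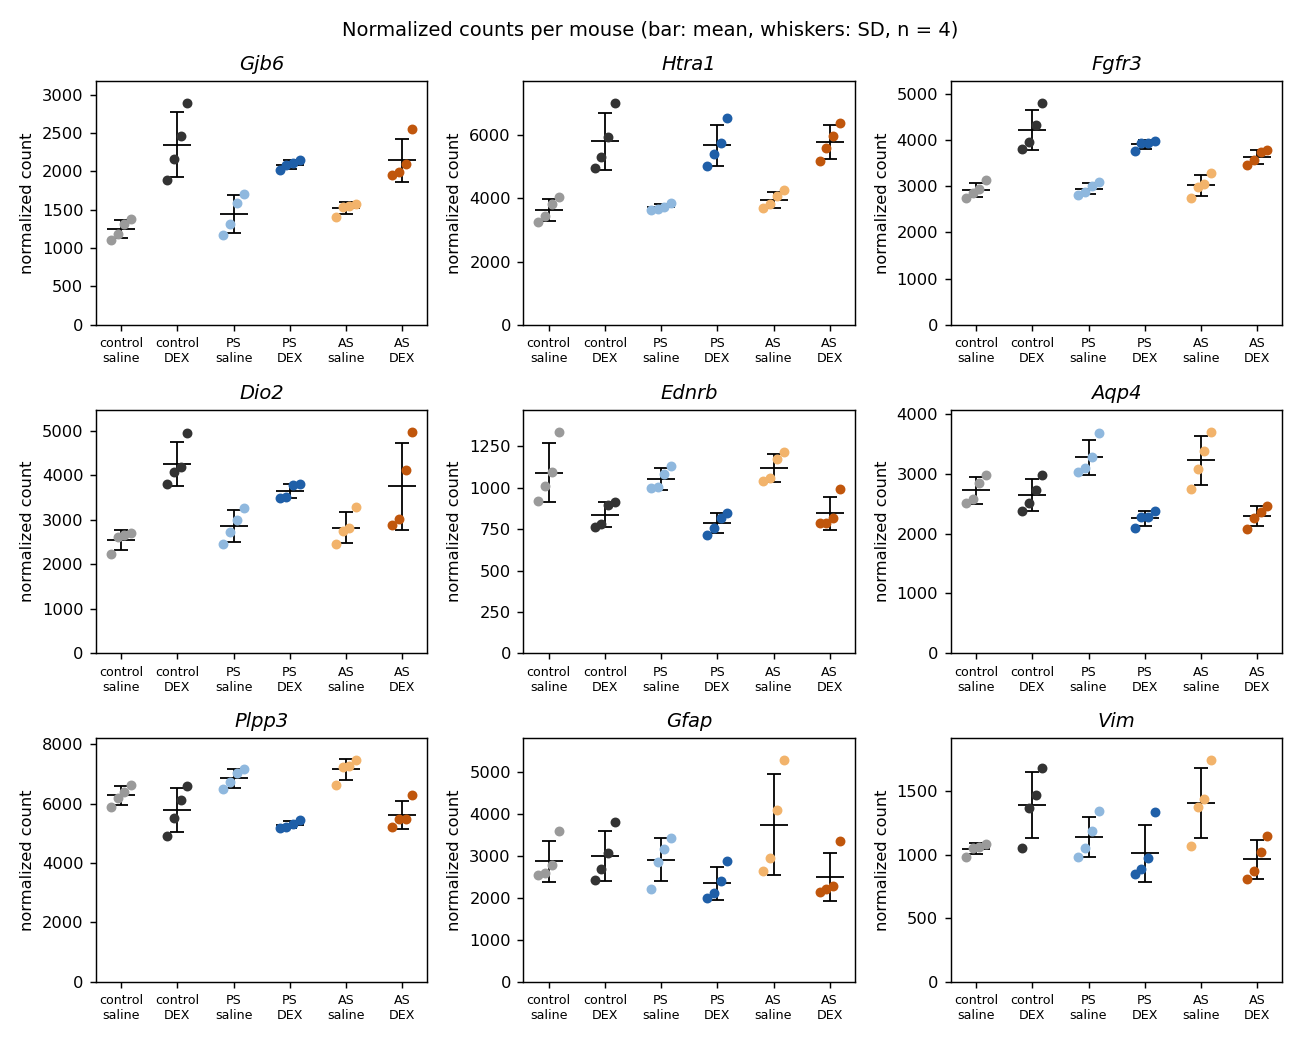
Normalized counts (vertical axes, from 0) of 9 astrocyte genes in the 6 groups (horizontal axes), with 1 point per mouse and the group mean and SD as bars (n = 4). Gjb6, Htra1 and Fgfr3 are higher and Ednrb is lower in the DEX groups of all phenotypes; Aqp4 and Plpp3 separate in PS and AS mice, and Gfap and Vim overlap.

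Fabp7 had the lowest log2 fold change of the list without being called. In AS mice it had 588 ± 119 normalized counts with saline and 307 ± 50.5 with DEX, a log2 fold change of -0.93 (limma, adjusted p = 0.133), and without the 5 libraries with high olfactory bulb genes the value, -0.80, was called. It was also called without saline-treated control mouse 117, without DEX-treated PS mouse 34 and in a fit on only the groups compared, each with the same log2 fold change. Leaving out the 5 libraries with high olfactory bulb genes also called Lcat, an enzyme of cholesterol esterification, in AS mice (-0.49). The fit on all libraries gave -0.43 there (limma, adjusted p = 0.105).

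By role, the 4 genes of glutamate uptake and conversion (Slc1a2, Slc1a3, Glul and Glud1) gave 1 rise in control mice, Glul, and no call in PS or AS mice, where their log2 fold changes ran from -0.19 to 0.07. Of the 9 genes of water, gap junction and ion handling, Gjb6 rose in all phenotypes, Aqp4 fell in PS and AS mice, and the other 7 were not called. Of the 5 receptors, Fgfr3 rose, Ednrb, Bmpr1b and Gpr37l1 fell, and Ntsr2 was not called. Of the 9 genes of metabolism and redox, Dio2, Ppp1r3c and Aldh1l1 rose and Plpp3 fell. Of the 5 secreted and surface proteins, Htra1 and F3 rose, Agt passed in the mean of the phenotypes, and Clu and Sparcl1 were not called. The GABA transporter gene Slc6a11, the serine and alanine transporter gene Slc7a10 and the transcription factor gene Sox9 had log2 fold changes between -0.19 and 0.11.

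Over the whole list, called or not, the median log2 fold change of DEX was 0.14 in control mice, where 32 of 39 lay above 0, -0.04 in PS mice, where 16 did, and -0.09 in AS mice, where 13 did. Over all genes the medians were -0.01, 0.00 and 0.00, and 47.1%, 49.2% and 50.7% lay above 0. For 37 of the 39 genes the log2 fold change in control mice was the highest of the 3. The difference between the AS and the control response was below 0 for 39 of 39 genes (median -0.23; 49.6% of all genes), and that between the PS and the control response for 37 of 39 (median -0.21; 49.4% of all genes). Both differences contain the same 8 control libraries. Several other lists lay to one side in the same differences, and some were mixed. For AS mice all 10 endothelial (median -0.89), all 8 mural (-0.85), all 10 microglial (-0.24) and all 6 leptomeningeal markers (-0.92) and 40 of the 48 other astrocyte genes (-0.22) lay below 0, while all 10 oligodendrocyte markers lay above 0 (0.82). For PS mice the endothelial (-0.49), mural (-0.52), microglial (-0.26) and leptomeningeal markers (-0.99) likewise all lay below 0 and the oligodendrocyte markers all above it (0.53). Mixed lists for AS mice were oligodendrocyte precursor (3 of 6 above 0), ependymal (1 of 2), pyramidal (7 of 8) and GABAergic markers (6 of 8). The part of these cell types in the differences of the 39 genes was not tested. Vim was the only member called in either difference, with 14 (35.9%) and 12 members (30.8%) at an unadjusted p under 0.05, beside 13.6% of all genes and 1406 of the 14060. Single libraries moved these medians. Leaving out DEX-treated control mouse 101 gave 0.07 in control mice and -0.14 and -0.11 in the differences for AS and PS mice, and leaving out DEX-treated control mouse 112 gave 0.21, -0.29 and -0.27. In PS mice the median was -0.10 without DEX-treated mouse 34 and -0.02 without saline-treated mouse 28, and in AS mice -0.15 without DEX-treated mouse 72 and -0.04 without DEX-treated mouse 42. Without DEX-treated control mouse 112, whose mean level was the lowest of its group, 15 genes were called in control mice and 9 in the difference between AS and control mice. The shares of all genes called in that fit are not given here, so these counts describe the members alone.

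The DEX responses of the 39 genes can be set beside each other between phenotypes, since these comparisons share no library. Pearson's r between the log2 fold changes was 0.84 for control and PS mice, 0.78 for control and AS mice and 0.88 for PS and AS mice, and Spearman's rho was 0.77, 0.79 and 0.90. Across all 14060 genes Pearson's r was 0.31, 0.20 and 0.60. Genes are not independent replicates, so these values describe the list and carry no p. Spearman's rho over all genes was 0.15, 0.09 and 0.50. The sign was shared by 21, 20 and 34 of the 39 genes (53.8%, 51.3% and 87.2%), beside 52.9%, 51.8% and 67.1% of all genes.

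With DEX, none of the 39 genes was called between stressed and control mice. The count was 0 for PS mice, where 0.206% of all genes were called, and 0 for AS mice, where 0.868% were, with 13 (33.3%) and 3 members (7.69%) at an unadjusted p under 0.05, beside 14.0% and 13.5% of all genes. EdgeR called 0 in both, and DESeq2 called 0 in PS and 2 in AS mice, Fgfr3 (-0.22) and Vim (-0.54). In PS mice 37 of 39 genes lay below the control mean (51.0% of all genes) and in AS mice 32 did (49.8%). The median in AS mice was -0.06, and 0.01 without DEX-treated control mouse 101. Without DEX-treated control mouse 112, Vim, Slc1a3 and Atp1b2 were called lower in PS mice and Vim and Fgfr3 in AS mice, and without DEX-treated PS mouse 56 Vim was called in both. No member was called in the differences of the DEX response between PS and control mice or between AS and PS mice (0.0% of all genes in each; edgeR and DESeq2 also 0, with 12 and 0 members at an unadjusted p under 0.05, beside 1406 of the 14060 genes and 2.46% of all genes).

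Levels of vessel markers differed between groups as well. The 10 endothelial markers summed to 8836 to 11804 normalized counts in control mice with saline and 11357 to 16100 with DEX, to 7938 to 11172 and 6378 to 12496 in PS mice, and to 7856 to 12395 and 6643 to 9559 in AS mice. Of these 10 genes, 1 was called higher in control mice, 1 higher and 1 lower in PS mice, and 4 lower in AS mice. The 8 mural cell markers summed to 5033 to 8621 with saline and 3850 to 4829 with DEX in AS mice, where 5 were called lower and 0 higher, and to 5247 to 6962 and 5814 to 8807 in control mice, where 0 were called. None of these markers was at 0 in any library. DEX-treated control mouse 101 had the highest mean endothelial (10.22) and, among the DEX-treated mice, mural (9.13) log2 level as well as the highest mean of the 39 astrocyte genes. In AS mice, where 4 endothelial and 5 mural markers were called lower, 4 of the 39 genes were called higher and 6 lower. In control mice, where 1 endothelial marker was called higher, 8 of the 39 genes were called higher and 1, Ednrb, lower. Of 10 microglial markers, 1 rose and 2 fell in control mice and 3 fell in each of PS and AS mice. Of 10 oligodendrocyte markers, 3 fell in control and 2 rose in AS mice. Beside these marker counts, 4.05% of all genes rose and 2.46% fell in control mice. The shares were 2.75% and 2.65% in PS and 3.83% and 4.97% in AS mice. The part of vessels and other cell types in the results was not tested.

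A further 50 genes expressed by astrocytes, of which 48 were tested, gave a view beyond the 39. None was called for stress with saline, where 1.51% of all genes were called in PS and 0.185% in AS mice. After DEX, 9 rose and 6 fell in control mice (4.05% and 2.46% of all genes). In PS mice 6 rose and 11 fell (2.75% and 2.65%), and in AS mice 5 rose and 13 fell (3.83% and 4.97%). The medians were 0.02, -0.15 and -0.15 on the log2 scale. The largest rise was that of Mt2, a metallothionein gene induced by glucocorticoids, which had 1428 ± 195 normalized counts with saline and 3291 ± 663 with DEX in control mice, 1576 ± 261 and 2863 ± 504 in PS mice, and 1680 ± 126 and 3170 ± 571 in AS mice (log2 fold changes 1.19, 0.86 and 0.90; limma, adjusted p = 9.32e-06, 0.00065 and 0.000364). Its neighbour Mt1 rose by 0.69, 0.55 and 0.58. Cbs, an enzyme of hydrogen sulfide and cysteine synthesis, rose by 0.68, 0.55 and 0.39, and Mertk, a phagocytic receptor, by 0.65, 0.42 and 0.52. Lfng, a modifier of Notch, rose by 0.60 in control and 0.55 in PS mice.

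Falls in that wider list included a second fibroblast growth factor receptor. Fgfr2 had 844 ± 122 normalized counts with saline and 514 ± 73.8 with DEX in control mice, 820 ± 70.7 and 509 ± 41.5 in PS mice, and 818 ± 67.3 and 517 ± 47.7 in AS mice, and fell in each (log2 fold changes -0.72, -0.69 and -0.66; limma, adjusted p = 0.000136, 0.000249 and 0.000344), while Fgfr3 rose. Gli3, a transcription factor of Hedgehog signalling, fell by 0.52, 0.80 and 0.61, and Gldc, the glycine decarboxylase, by 0.45, 0.69 and 0.75. The urea transporter gene Slc14a1 fell by 0.85 in AS mice, and Slco1c1, a thyroxine transporter shared with endothelium, fell there by 0.73.

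Of 35 genes of reactive astrocytes, 17 were in the table and tested. DEX gave 7 rises and 0 falls in control mice (4.05% and 2.46% of all genes). It gave 2 rises and 1 fall in PS mice (2.75% and 2.65%) and 2 rises and 3 falls in AS mice (3.83% and 4.97%). Lcn2, a secreted lipocalin, was near the detection limit with saline and reached 36.9 to 84.9 normalized counts in control, 10.3 to 44.6 in PS and 8.53 to 38.0 in AS mice with DEX, against 0 to 6.79, 1.28 to 6.31 and 0.745 to 6.13 with saline (limma, adjusted p = 5.54e-06, 0.0249 and 0.0107). Fkbp5, which is also in this list, rose in all phenotypes (log2 fold changes 2.26, 2.00 and 1.91). Cp, ceruloplasmin, rose from 400 ± 107 to 719 ± 77.7 in control mice (0.87; limma, adjusted p = 0.0281), with -0.07 in PS and -0.20 in AS mice. Gbp2, an interferon-induced GTPase, had 124 ± 47.6 normalized counts with saline and 35.5 ± 16.8 with DEX in PS mice and 123 ± 22.3 and 45.6 ± 19.2 in AS mice, and fell in both (log2 fold changes -1.85 and -1.50; limma, adjusted p = 0.00132 and 0.00742). Its log2 fold change in control mice was -0.58, the lowest of the list there, and was not called. Hspb1, a small heat shock protein also made in vessels, rose by 0.59 in control mice and fell by 0.66 in AS mice, and the difference between these responses, -1.25, passed the test (limma, adjusted p = 0.0691).

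The neuronal side of the glutamate cycle was tested with 10 genes, which include Glul and Glud1. No gene other than Glul was called in any single phenotype after DEX, and the neuronal transporter gene Slc1a1 passed only in the mean of the 3 (0.09; limma, adjusted p = 0.097). Without Glul and Glud1, the other 8 genes summed to 82127 to 91232 normalized counts in control mice with saline and 81708 to 88290 with DEX, to 78752 to 81636 and 81538 to 87417 in PS mice, and to 78531 to 84192 and 81132 to 88724 in AS mice. The ranges overlapped in all 3 phenotypes.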

How the data were processed

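RNA was extracted from frozen PFC, and strand-specific poly(A) libraries were sequenced as paired reads. Per the submitters' processing notes, reads were trimmed with fastp 0.20.1, aligned to mm10 with HISAT2 2.2.1, counted with featureCounts of Subread 2.0 and scaled with DESeq2 1.36.0. The authors assigned reads to GENCODE genes. Each deposited signal value is a read count of a gene, scaled by the authors with 1 size factor for its library. Whole reads were recovered from 100% of the values (tolerance 0.01 read) and gave 21121869 to 59439645 reads per library. The p-values that the authors deposited were used only to see which 14060 genes they had tested. The deposited fold changes and p-values of their own comparisons were not used.

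Groups were taken from the sample labels. The phenotypes PS and AS are the study's behavioral clusters. All 36 pairs of libraries within a group differed by more than sampling noise (chi-square per gene of 5.74 to 82.3 over genes with at least 10 reads in both).

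Log2(normalized count + 1) of the 14060 genes entered 1 limma fit (version 3.58.1, R 4.3.3, eBayes with trend) with 6 group means and all 24 libraries. A call is a Benjamini-Hochberg adjusted p, over all genes, below 0.1. Fold changes on this scale understate the change of low genes. Each p sets a difference between group means against the spread between mice within groups. That spread is pooled over the 6 groups and drawn toward that of genes of similar level. Members, gene lists and tests were chosen with earlier results of these data known. All 39 members could be named. Values in every library are given for members called in a stress or DEX comparison, at most the 4 largest rises and falls in each, and for both members with the highest means. For other astrocyte, reactive and glutamate lists, up to 3 called rises and falls per DEX comparison are named. Fkbp5 and Tsc22d3 served as a check of the DEX labels. Exon lengths are unions of GENCODE vM21 exons on GRCm38, and promoter sequences are from RefSeq (GRCm38.p6).

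The limma step was tested on simulated counts. The fit was repeated with a pseudocount of 8, on genes averaging 100 or more normalized counts, on all 14074 genes, after quantile normalization, on the compared groups alone, with library size added to the model and with each library left out. Recovered reads were tested with the Wald test of DESeq2 1.42.0 and the quasi-likelihood test of edgeR 4.0.16. Leaving out the 5 libraries with at least 100 normalized counts of Eomes and scaling to the mean of the 39 members were added after seeing the data. Summaries used Python 3.11.15 and scipy 1.17.1.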

Additional observations from a re-analysis of the deposited data

Results flagged for a closer look

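In groups of 4 mice, a library was marked when its gap to the nearest other exceeded, as a share of the range of its group, Dixon's 95% critical value, which chance gives in about 1 group in 20. Of 240 groups (39 genes and their mean in 6 groups), 17 were marked. Slc6a11 was high in saline-treated control mouse 117 (6721 normalized counts) and DEX-treated PS mouse 34 (5656), Fabp7 was high in DEX-treated PS mouse 34 (882) and Mlc1 was high in the same mouse (3648), and both libraries are among the 5 with high olfactory bulb genes. Cldn10, a claudin of astrocytes, was high in saline-treated PS mouse 2 (587), another of these 5. In saline-treated AS mouse 44, S100b was high (2887) and Slc1a3 low (15090), and S100b was also high in DEX-treated AS mouse 60 (3094). DEX-treated AS mouse 72 was high for Gja1 (4791), Gfap (3358) and Ednrb (994). The amino acid transporter gene Slc7a10 was high in DEX-treated control mouse 101 (910). Slc1a3 (13366) and Ppp1r3c (826) were low in DEX-treated PS mouse 6, and Glud1 was high in saline-treated control mouse 106 (7015) and low in saline-treated AS mouse 8 (6931). Ppp1r3c in saline-treated control mouse 107 (634.5) was marked against 3 mice at 631.4 to 631.7. With as few as 468 reads of this gene in a library, a gap this small lies below counting error.

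Vim was marked because its DEX response differed between AS and control mice by -0.93 on the log2 scale (limma, Benjamini-Hochberg adjusted p = 0.0941). The adjusted p was under 0.1 in 14 of 34 other settings.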

How the results depend on the processing

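Of the 42 calls of a member in a comparison, 31 held in all 34 other settings, and no called fold change had the opposite sign in any of them. Over those settings 1351 of 1428 combinations kept the call and 77 lost it. Gene by gene, Gfap after DEX in AS mice, Dio2 after DEX in AS mice and Vim in the difference between the AS and control responses were the least stable. The count of members called for stress in PS mice with saline was 2 in a fit on only the groups compared. DESeq2 called 2 members between DEX-treated AS and control mice and 2 in the difference between the AS and control responses, where limma called 0 and 1. That difference gave 0 calls when only genes averaging 100 or more normalized counts were kept, with quantile normalization, with library size as a covariate and without the 5 libraries with high olfactory bulb genes. The cause was not tested. Without those 5 libraries, 6 members were called in control, 6 in PS and 11 in AS mice after DEX. Relative to the mean of the 39 members, a scaling that sets the median of the list near 0 by construction and so does not test its sign, the counts were 9, 9 and 12.

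With single libraries left out, the counts ran from 7 to 15 after DEX in control mice, 8 to 9 in PS and 6 to 12 in AS mice, 14 to 17 in the mean of the phenotypes, 0 to 3 between DEX-treated PS and control mice, 0 to 2 between DEX-treated AS and control mice and 0 to 9 in the difference between the AS and control responses. They were 0 throughout for stress with saline and for the other 2 differences. For these and the other settings above, the shares of all genes called are not given, so the counts describe the members alone. The 15, 3, 2 and 9 came without DEX-treated control mouse 112, and the 6 came without AS mouse 8 or 42. No paired analysis was possible because mouse numbers do not recur between groups. Every member had at least 107 reads in each library, and Agt and Bmpr1b have the lowest levels per kb. The part of counting error in the spread of single members between mice was not tested.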
